A study of Mus musculus with 4 samples.

Results

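The 9 genes described here are core genes of the Hedgehog pathway of the hair follicle: Shh, Ptch1, Smo, Gli1, Gli2, Gli3, Hhip, Sufu and Gas1. They were taken by symbol from the rows of the expression table that the platform annotation assigns to exactly 1 gene. All 9 genes were found, with 1 row each, among 21780 such rows and 28815 rows in all. The study measured bulge stem cells, the resting stem cells of the hair follicle, on one-colour arrays with biotin-labelled cDNA. Every mouse was a male of the CD-1 strain at postnatal day 56, in the second resting phase (telogen) of its hair cycle. The CSA group received 100 mg/kg CSA and the vehicle group the vehicle, by injection into the peritoneum over 3 days before the skin was taken. The labels do not expand CSA, an abbreviation used in calcineurin research for cyclosporine A. Cells were sorted for CD34 together with alpha6 integrin, and each group had 2 arrays that the series design calls biological replicates. How many mice were pooled for a sample is not stated in the labels.

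Hedgehog signalling starts when a secreted ligand such as Shh binds the receptor Ptch1, which otherwise holds the membrane protein Smo inactive. Active Smo, working at the primary cilium, releases the GLI transcription factors from Sufu, and GLI factors then switch on a set of genes that includes Gli1, Ptch1 and Hhip themselves. Because Ptch1 and Hhip bind and remove the ligand, their induction limits the signal. In the follicle, Shh made by activated progenitors and by the growing matrix drives proliferation at the onset of growth, while the resting bulge can also receive ligand from nerves.

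The promoter windows of 3 members are shown, since Hhip was the member whose groups stood farthest apart, Ptch1 is the other feedback gene of the ligand, and the Gli2 window holds the GLI core. The sequences are from RefSeq (GRCm38.p6), whose table held 7 of the 9 members, and each runs 5′ to 3′ on the strand of the gene from 250 bases before its start to 50 bases after. Capitals mark the core ACCACCC of the GLI binding motif, read on either strand as ACCACCC or GGGTGGT. The Gli2 window is chr1:119053570-119053869, the Hhip window chr8:80057959-80058258 and the Ptch1 window chr13:63565686-63565985, all on the minus strand.
Gli2: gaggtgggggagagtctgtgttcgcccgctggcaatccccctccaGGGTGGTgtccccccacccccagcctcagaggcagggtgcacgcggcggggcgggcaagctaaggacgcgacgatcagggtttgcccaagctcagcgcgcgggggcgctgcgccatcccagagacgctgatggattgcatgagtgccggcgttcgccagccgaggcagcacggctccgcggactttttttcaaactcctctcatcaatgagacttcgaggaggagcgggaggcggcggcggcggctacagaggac
Hhip: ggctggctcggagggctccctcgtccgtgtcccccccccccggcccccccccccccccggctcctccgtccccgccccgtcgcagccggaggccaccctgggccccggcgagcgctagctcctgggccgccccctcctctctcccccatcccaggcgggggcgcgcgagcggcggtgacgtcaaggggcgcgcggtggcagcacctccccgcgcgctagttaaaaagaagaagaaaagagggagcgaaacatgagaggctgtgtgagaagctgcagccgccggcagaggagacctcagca
Ptch1: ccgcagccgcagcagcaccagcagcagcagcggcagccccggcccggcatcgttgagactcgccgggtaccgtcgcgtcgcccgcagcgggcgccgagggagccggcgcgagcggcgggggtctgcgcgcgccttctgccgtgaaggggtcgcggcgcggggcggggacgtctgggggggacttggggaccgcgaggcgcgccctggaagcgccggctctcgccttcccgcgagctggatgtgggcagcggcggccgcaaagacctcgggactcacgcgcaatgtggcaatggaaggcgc

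The core was found in 1 of the 7 member windows, that of Gli2, where it begins 205 bases before the gene start. Of all 32851 promoter windows of this length 4.61% hold it. A match to these letters is a description of the sequence and not a binding site.

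The values are on a log scale taken as log2 and were centred row by row by the authors on a baseline that is not known. A value therefore tells how far a gene stood from its own baseline, and levels cannot be compared between genes. The medians over all rows lay between -0.02 and 0.06 on the 4 arrays. CSA replicate 2 and vehicle replicate 2 correlated most over rows (Pearson r 0.516), against 0.0198 to 0.168 for the other pairs. Of 10 bulge markers 7 stood above the baseline on all 4 arrays, against 4.28% of all rows. This does not check the sort, as the baseline is unknown. The sums over the 10 markers were 3.92 and 12.14 in CSA, compared with 8.42 and 12.81 in vehicle. CSA replicate 1 had the lowest sum, so the 2 CSA arrays differed in the markers of the sorted cells themselves. Itga6, the alpha6 integrin of the sort, was -0.70 and -0.53 in CSA, compared with -0.9995 and 0.08 in vehicle. Cd34 was 1.75 and 3.60 in CSA, compared with 4.05 and 4.25 in vehicle. In such sorted bulk samples, fewer cells of a type and less RNA per cell cannot be told apart.

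Of the Hedgehog genes, Hhip, Sufu and 6 others had lower means in CSA-treated than in vehicle-treated bulge cells, and Ptch1 had a higher one. In the deposited values only Hhip and Sufu had CSA values that did not overlap with the vehicle values, and both were lower in CSA. After quantile normalization or with arrays centred on their medians, Hhip stayed apart, Sufu overlapped, and Gas1 had separate groups in its place. None of the 9 passed the test over the whole table: the adjusted p of limma was 0.999 for each. Over the whole table limma called 0 of 21780 rows (0%) at an adjusted p under 0.05, 646 at an unadjusted p under 0.05 (2.97%), and 599 without moderation. The groups did not overlap for 2 of the 9 members and for 26.5% of all rows. Apart by at least 1.5-fold without overlap was 1 member, Hhip, against 6.28% of all rows, or 2.11% counted in the lower direction alone. The median difference of the members was -0.18 on the log2 scale, against -0.04 over all rows, and 58% of all rows had a lower mean in CSA. With 2 arrays against 2, the smallest two-sided p of an exact permutation test is 0.333, so no single gene could reach 0.05 by it.

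**Figure D1:**
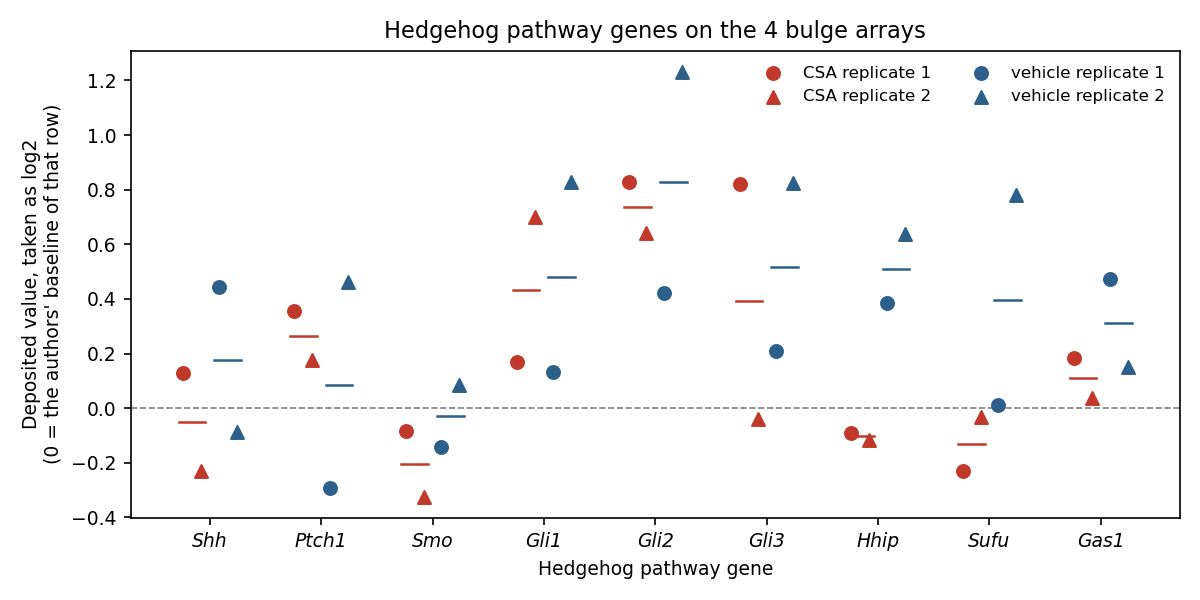
Deposited values of the 9 Hedgehog genes (vertical axis, taken as log2, with 0 at the authors' baseline of each row) on the CSA (red) and vehicle (blue) arrays. Circles are replicate 1, triangles replicate 2 and short lines group means (n = 2). Both CSA values of Hhip, -0.09 and -0.12, lie under both vehicle values, 0.38 and 0.64, while the groups overlap for 7 of the 9 genes.

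Shh, the ligand, was near its baseline. It was 0.13 and -0.23 with CSA and 0.44 and -0.09 with vehicle. In both groups replicate 1 was the higher array, and the groups overlapped. The difference of CSA minus vehicle was -0.23 ± 0.27 (the moderated standard error of limma with n = 2 per group, as after every ± that follows a difference), with a 95% interval from -0.98 to 0.52. Both arrays numbered 1 stood above both numbered 2 for Shh and Gas1, and for 31.1% of all rows. Without vehicle replicate 1 the difference of Shh was 0.04. Markers of the hair germ and matrix, the follicle cells known to make Shh, had higher means in CSA for 6 of 7 rows, with a median of 0.28. The sums of their values were 3.36 and 3.81 with CSA, above 1.15 and 1.84 with vehicle. Only 1 of these 7 rows, that of Runx1, had groups that did not overlap, and 0 had an unadjusted limma p under 0.05. Runx1 and Msx2 had the largest differences, 0.83 ± 0.40 and 0.72 ± 0.51. Cdh3 and Msx1 differed by only 0.02 ± 0.19 and 0.04 ± 0.27, so the sums do not describe each marker. Of the 4 measured markers of Schwann cells and nerves 2 were higher and 2 lower.

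Among the receptors and surface proteins, Ptch1, which binds the ligand and restrains Smo, was 0.36 and 0.17 in CSA, compared with -0.29 and 0.46 in vehicle. The vehicle arrays were its lowest and its highest value, and the CSA arrays lay between them. Its difference of 0.18 ± 0.31 (95% interval -0.68 to 1.04) turned to -0.20 without vehicle replicate 1 and was 0.56 without vehicle replicate 2. Smo, the signal transducer that Ptch1 restrains, was -0.09 and -0.32 in CSA, compared with -0.14 and 0.09 in vehicle. Its values stayed within 0.41 of each other, a narrower range than the 0.50 found for the median row, and the difference was -0.18 ± 0.19. Gas1, a membrane protein that helps Shh bind Ptch1, was above its baseline on all 4 arrays, at 0.18 and 0.04 in CSA, compared with 0.47 and 0.15 in vehicle. The groups of Gas1 overlapped in the deposited values and did not after quantile normalization or median centring. Its difference was -0.20 ± 0.20, and -0.04 without vehicle replicate 1.

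Hhip encodes a membrane protein that binds Hedgehog ligands and keeps them from Ptch1, and it was the member with the clearest separation of the groups. It was -0.09 and -0.12 with CSA and 0.38 and 0.64 with vehicle. The CSA mean was -0.10 ± 0.02 and the vehicle mean 0.51 ± 0.18 (SD, n = 2). The difference was -0.61 ± 0.18 (95% interval -1.10 to -0.13), which is 1.53-fold lower in CSA. Its unadjusted limma p was 0.0243, which 2.97% of all rows passed at 0.05 in either direction and 1.06% in the lower one, and its adjusted p was 0.999. The exact permutation p was 0.333, the smallest this design allows. In absolute size the difference stood at percentile 90.7 of all rows. It was between -0.74 and -0.49 with any 1 array left out, and the last of these, without vehicle replicate 2, lies under 1.5-fold.

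Markers of the interfollicular epidermis were lower in CSA as well. All 5 measured markers had lower means in CSA, as did 58% of all rows. For 3 of them the groups were at least 1.5-fold apart without overlap, against 2.11% of all rows in the lower direction. The sum over the 5 markers was -4.92 and -3.89 in CSA, compared with 3.15 and -3.30 in vehicle, and all 5 were highest in vehicle replicate 1. Hhip was highest in vehicle replicate 2, and its difference was -0.74 without vehicle replicate 1 and -0.49, under 1.5-fold, without vehicle replicate 2. Endothelial markers were lower in CSA for 6 of 6 rows, with sums of 0.09 and -0.57 in CSA, compared with 1.66 and 0.05 in vehicle, again highest in vehicle replicate 1 for all 6. Dermal papilla and fibroblast markers were lower for 10 of 11 rows (sums 0.19 and 1.55 in CSA, 2.94 and 1.30 in vehicle). Immune markers were lower for 5 of 6 rows, and all 6 were highest in vehicle replicate 1. Lower means were also found for 7 of 10 bulge, 4 of 5 sebaceous and 3 of 5 melanocyte rows, but for only 1 of 7 hair germ and matrix rows. Because rows are centred, no marker can be read as absent, and the part of these cell types in the Hedgehog values was not tested.

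Sufu, which holds GLI factors in the cytoplasm and so restrains the pathway inside the cell, also had separate groups. It was -0.23 and -0.03 in CSA, compared with 0.01 and 0.78 in vehicle. The gap between the groups was small, since CSA replicate 2 and vehicle replicate 1 lay next to each other, and vehicle replicate 2 stood alone at the top. The difference was -0.53 ± 0.32 (95% interval -1.40 to 0.35). It rested on vehicle replicate 2, since leaving that array out made it -0.14, while leaving out vehicle replicate 1 made it -0.91. After quantile normalization or median centring the groups of Sufu overlapped (difference -0.50 under both).

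The GLI factors carry the signal to the genome. Gli1, an activator that is itself induced by the pathway and so serves as its common readout, was 0.17 and 0.70 in CSA, compared with 0.13 and 0.83 in vehicle. Each CSA array lay close to the vehicle array of the same number, and both arrays numbered 2 stood above both numbered 1, as in 17.3% of all rows. The difference was -0.05 ± 0.34, with a 95% interval from -0.99 to 0.90. That interval covers a change of nearly 2-fold in either direction, so the absence of a visible difference does not show that Gli1 was the same. Leaving out vehicle replicate 2 made it 0.30, and leaving out vehicle replicate 1 made it -0.39.

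Gli2, the main activator of the response, was above its baseline on all 4 arrays, with 0.83 and 0.64 in CSA, compared with 0.42 and 1.23 in vehicle. The CSA arrays lay between the vehicle arrays. The difference was -0.09 ± 0.33; leaving out vehicle replicate 2 made it 0.31, and leaving out vehicle replicate 1 made it -0.50. Gli3, which acts mostly as a repressor when the pathway is off, was 0.82 and -0.04 in CSA, compared with 0.21 and 0.83 in vehicle. CSA replicate 1 and vehicle replicate 2 were alike and high, and the other arrays were low, so the groups overlapped (difference -0.13 ± 0.40). It was -0.55 without CSA replicate 1 and 0.30 without CSA replicate 2.

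Against their baselines, Gli1, Gli2 and Gas1 were above 0 on all 4 arrays, which is 3 of the 9 members against 4.28% of all rows. Since the authors' baseline is unknown, this says only that these rows stood above it in bulge cells of both groups.

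**Figure D2:**
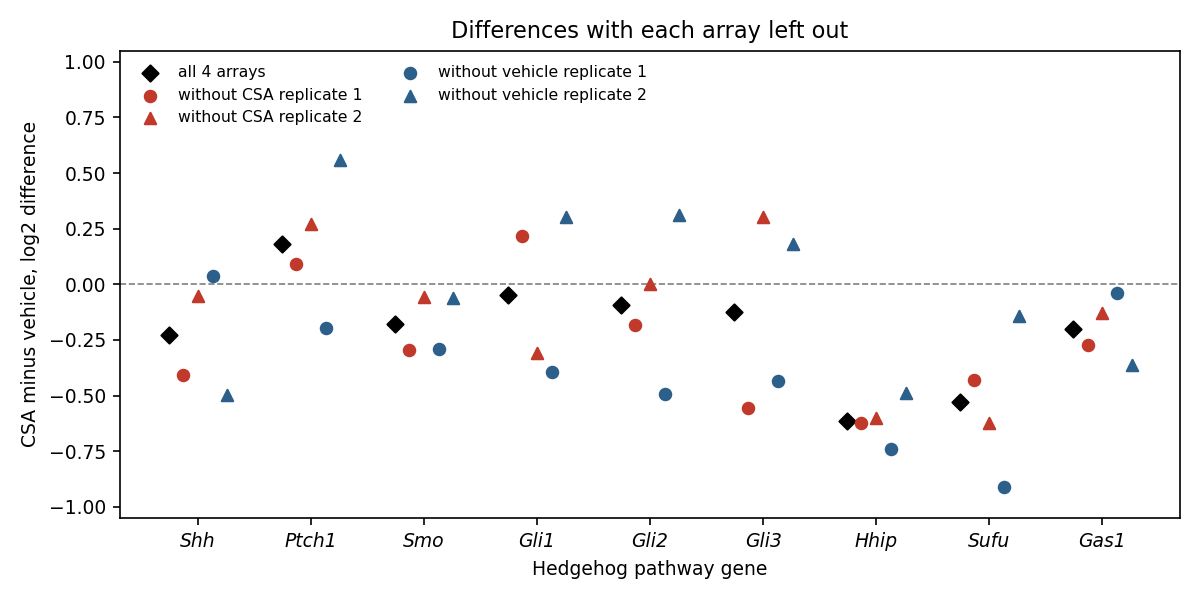
CSA minus vehicle difference (vertical axis, log2) of each Hedgehog gene with all 4 arrays (black diamonds) and with each array left out in turn. Hhip stayed between -0.74 and -0.49. The groups of Hhip and Sufu do not overlap, so leaving out 1 array cannot turn their sign. Smo and Gas1 also kept their sign, while Shh, Ptch1, Gli1, Gli2 and Gli3 crossed 0 when an array was removed.

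The pattern over the 4 arrays was compared between genes by the root mean square distance of rows centred on their own mean, for the 7 members whose range exceeded the median range of all rows. Nearest to Hhip were Mitf, a transcription factor of pigment cells, at a distance of 0.03 and Nrcam, a cell adhesion molecule, at 0.05. Mitf was 0.06 and 0.07 in CSA, compared with 0.61 and 0.80 in vehicle. Nearest to Gli1 were Cds2 (0.02) and Stk16 (0.03), and nearest to Shh were the adenylyl cyclase gene Adcy5 (0.01) and the myosin gene Myo18b (0.01). Rfc1 and Ints6l were nearest to Ptch1 (both 0.02), Ncaph and Dvl3 to Gli2 (both 0.04), Pde9a and Fbxo32 to Gli3 (0.04 and 0.05), and Abcc3 and Hmcn1 to Sufu (0.04 and 0.05). With 4 arrays and 21780 rows such close matches are common and describe the shape only. Among the members themselves, Shh and Gas1 were the closest pair (0.11) and Ptch1 and Gli2 the next (0.14).

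The other genes of the pathway were grouped by role into 5 lists of 64 measured genes and 68 rows. No row passed limma's test over the whole table. Means were lower in CSA for 44 rows and higher for 24, with a median difference of -0.12. Apart by at least 1.5-fold without overlap were 6 rows, all of them lower in CSA (8.82%, against 2.11% of all rows), and 0 were higher (4.16% of all rows). These 6 were Ccnd1, Bcl2, Ccnd2, Krt17, Boc and Ulk3. The lists were drawn up with earlier results of these data known, among them those of Ccnd1, Ccnd2 and Krt17, so this share is a description.

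**Figure D3:**
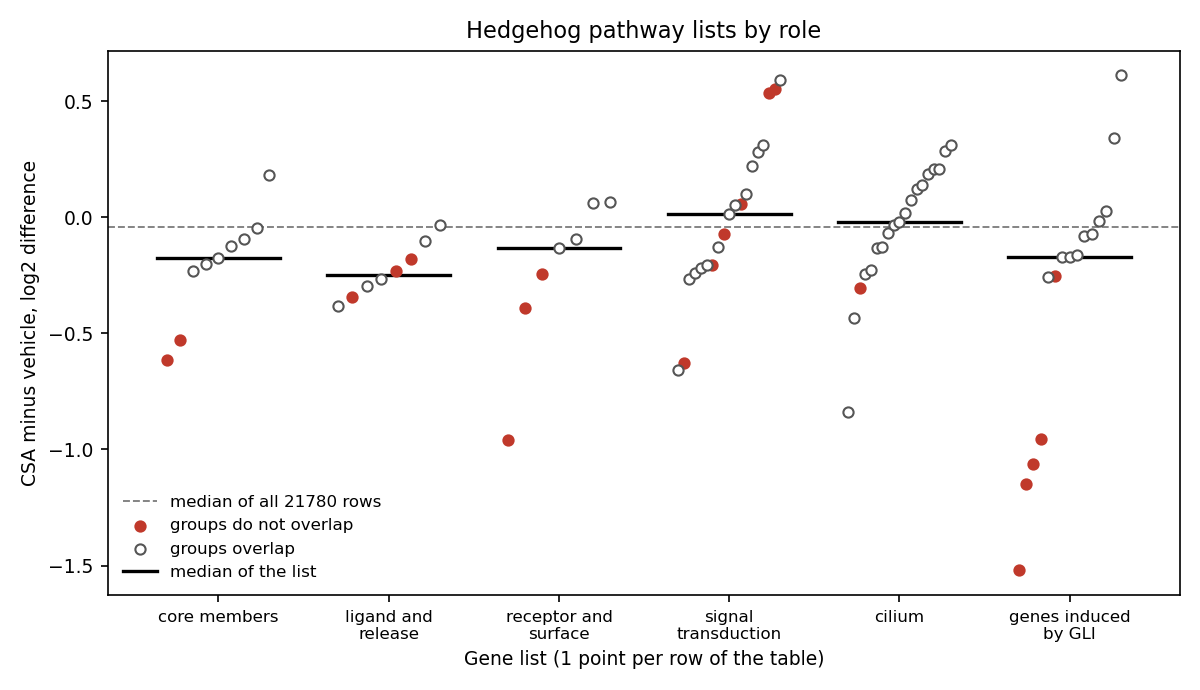
CSA minus vehicle difference (vertical axis, log2) of each row of the 9 core genes and of the 5 pathway lists. Filled red points are rows whose CSA and vehicle values do not overlap, black bars are list medians and the dashed line is the median of all rows (-0.04). The rows farthest below 0 are in the list of genes induced by GLI factors, and the cilium list spreads around 0 with a median of -0.02 (0.01 after quantile normalization).

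Ligand genes and the genes for ligand processing and release had lower means in CSA for 8 of 8 rows, with a median of -0.25 and 0 rows apart by 1.5-fold, where 58% of all rows were lower. That count was 4 of 8 without vehicle replicate 1 (median -0.01) and 7 of 8 after quantile normalization. Disp1, which releases the lipid-modified ligand from the cell, was 0.05 and -0.23 in CSA, compared with 0.07 and 0.43 in vehicle (difference -0.34 ± 0.22, between -0.52 and -0.16 with 1 array left out). Its second row spread from -0.78 to 1.43 with overlapping groups, so the 2 rows of this gene do not give the same picture. Scube3 and Scube1, of a family of secreted proteins that help release, differed by -0.23 ± 0.18 and -0.27 ± 0.22 (-0.10 and -0.12 without vehicle replicate 1). Hhat, which attaches palmitate to the ligand, differed by -0.18 ± 0.17. Vehicle replicate 1 was the highest array for 6 of the 8 rows.

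Of the 7 rows for receptors, co-receptors and surface modulators, 5 had lower means in CSA, with a median of -0.13. Boc, a co-receptor that presents the ligand to Ptch1, had the largest difference of means. It was -0.05 and 0.58 in CSA, compared with 0.91 and 1.54 in vehicle, so that both vehicle arrays stood above both CSA arrays. Its difference was -0.96 ± 0.35 (95% interval -1.92 to 0.004) and lay between -1.28 and -0.64 with any 1 array left out. Cdon, the co-receptor related to Boc, had overlapping groups. It was -0.63 and 0.82 in CSA, compared with -0.11 and 0.17 in vehicle, a difference of 0.06 ± 0.54 that was -0.66 without CSA replicate 2. Evc2, a cilium protein that acts with Smo, was -0.10 and -0.11 in CSA, compared with 0.23 and 0.34 in vehicle. Its arrays agreed well within each group, and the difference of -0.39 ± 0.16 ranged from -0.44 to -0.34 with 1 array left out. Gpc3, a glypican that competes with Ptch1 for ligand, differed by -0.24 ± 0.16, and the large endocytic receptor gene Lrp2 by -0.13 ± 0.19.

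Genes for signal transduction inside the cell went both ways, with 10 rows higher and 9 lower and a median of 0.01 (-0.02 after quantile normalization). Ulk3, a kinase that acts on GLI factors, was 0.37 and -0.20 in CSA, compared with 0.82 and 0.60 in vehicle (difference -0.63 ± 0.26, or -0.34 without CSA replicate 2 and -0.91 without CSA replicate 1). The largest differences in the other direction were those of Csnk1e, Prkar1a and Dyrk2. Csnk1e, a casein kinase, differed by 0.53 ± 0.30, Prkar1a, a regulatory subunit of protein kinase A, by 0.55 ± 0.32, and Dyrk2 by 0.59 ± 0.44. The groups of Csnk1e and Prkar1a did not overlap, at 1.45-fold and 1.47-fold, just under the threshold of 1.5-fold. Protein kinase A and casein kinases phosphorylate GLI factors when the pathway is off. Kinase activity was not measured. CSA replicate 1 set much of the values of Csnk1e and Dyrk2, whose differences without it were 0.18 and 0.02. Prkar1a was lowest in vehicle replicate 1 (-0.84) and differed by 0.15 without that array.

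Cilium genes needed for Hedgehog signalling were higher for 9 rows and lower for 10, with a median of -0.02 (0.01 after quantile normalization and 0.006 with median centring) and 0 rows apart by 1.5-fold. The 2 CSA medians of this list were -0.21 and 0.49 and the 2 vehicle medians -0.09 and 0.27, so that the arrays numbered 2 were higher in both groups. Tctn1, of the cilium's transition zone, differed by -0.30 ± 0.16 in 1 row and by -0.02 ± 0.16 in its other row. B9d1 of the same zone differed by -0.84 ± 0.65 with overlapping groups, and by -0.175 without CSA replicate 1, -0.23 without vehicle replicate 1 and -1.502 when CSA replicate 2 was left out. The transport genes Ift57 and Kif3b differed by -0.23 ± 0.21 and 0.31 ± 0.31, and the latter turned to -0.08 without vehicle replicate 1.

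The list of genes that GLI factors are known to induce had 12 of 15 rows lower in CSA, where 58% of all rows were lower, with a median of -0.17. Apart by 1.5-fold and lower were 4 rows, against 2.11% of all rows. Among these 4 are Ccnd1, Ccnd2 and Krt17, whose earlier results were known when the list was drawn up. Without vehicle replicate 1 only 7 of the 15 were lower, and the median was 0.01. Bcl2, a survival gene, was -0.02 and -0.21 in CSA, compared with 0.57 and 1.501 in vehicle. Both CSA arrays were near the baseline and both vehicle arrays above it (difference -1.15 ± 0.37). The D-type cyclin genes Ccnd1 and Ccnd2, which start the cell cycle, differed by -1.52 ± 0.46 and -1.06 ± 0.37, and the keratin gene Krt17 by -0.95 ± 0.35. Since the groups of these 4 genes do not overlap, leaving out 1 array cannot turn their sign. Each of the 4 also responds to other signals, so their list is not a measure of GLI activity alone. The remaining 11 rows, among them Mycn, Sox9 and Foxc1, differed by -0.25 ± 0.18, -0.26 ± 0.41 and 0.61 ± 0.43, and 1 of them, Mycn, had groups that did not overlap. With 1 array left out, Ccnd1 ranged from -2.13 to -0.91, Ccnd2 from -1.53 to -0.59 and Krt17 from -1.41 to -0.50, each nearest to 0 without CSA replicate 1. Bcl2 ranged from -1.61 to -0.68, nearest to 0 without vehicle replicate 2. The epidermal markers given above were also lower in CSA, and their part in these values was not tested.

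**Figure D4:**
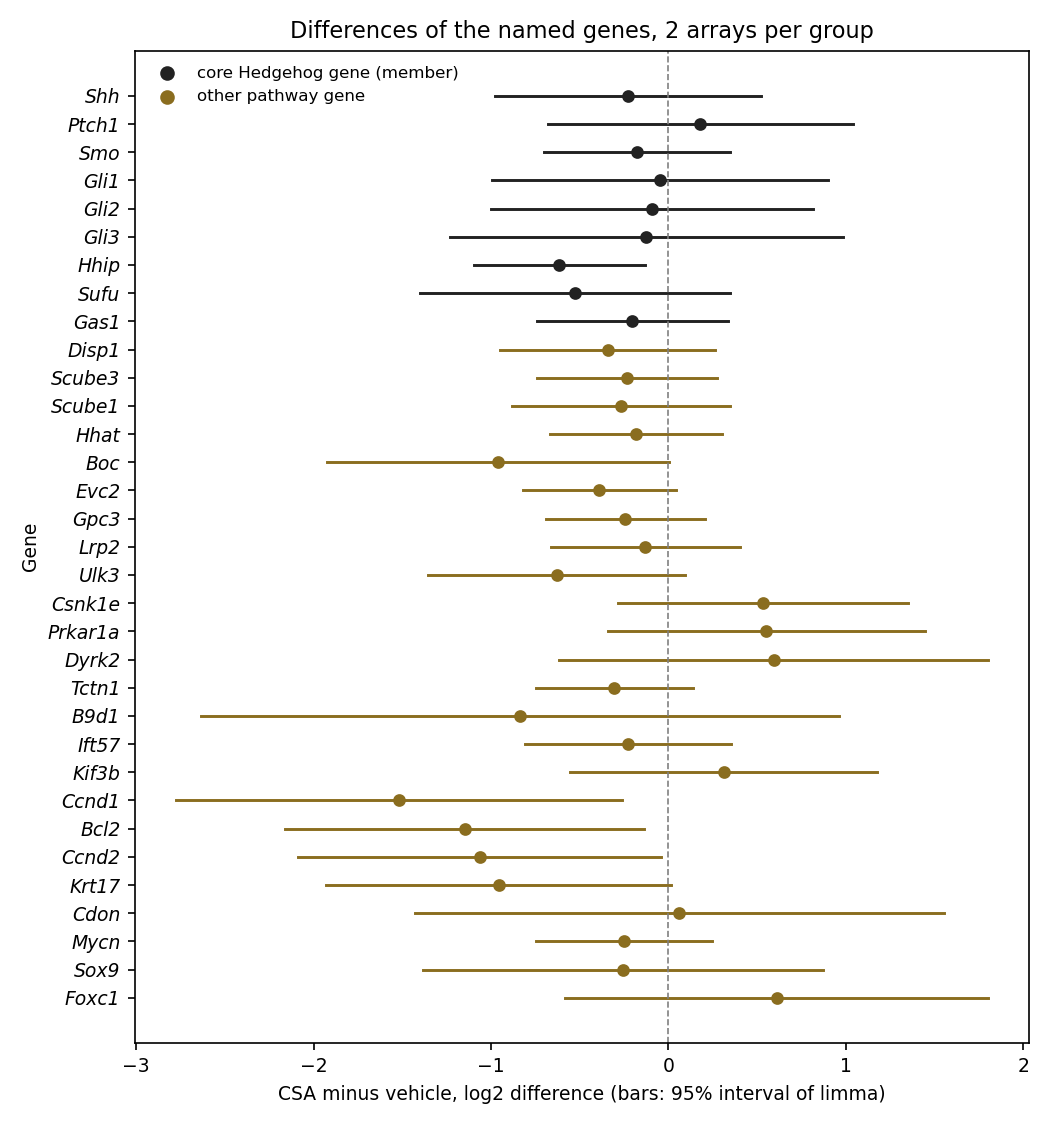
CSA minus vehicle difference (horizontal axis, log2) of the 9 core Hedgehog genes (black) and of the 24 other pathway genes named (brown), with the 95% interval of limma's fit (2 arrays per group, not adjusted for multiple tests). The interval leaves out 0 for Hhip, Ccnd1, Bcl2 and Ccnd2, none of which passed the adjusted test.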

How the data were processed

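RNA from sorted bulge cells was hybridised to 4 one-colour arrays. From each sample 20 ng of total RNA was amplified and labelled with biotin, per the labels' protocols. The deposited values are on a log scale with no stated base, taken here as log2, and centred per row by the authors. The baseline is not the median or mean of the 4 arrays: the median was 0 in 11.4% of rows and the mean in 0.0833% (within 0.0001). The submitters' processing notes name only the build mm8. Not given in the sources used here are the array software and the normalization. If the base were not 2, differences would scale by 1 factor and the fold threshold would move. Precision is limited by the number of arrays.

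Of 28815 rows, 21780 named 1 gene in the platform annotation and were fitted; 1605 named several, and 5430 were unnamed here. CSA was compared with vehicle in limma 3.58.1 (R 4.3.3; lmFit, eBayes without trend, two-sided, Benjamini-Hochberg over all 21780 rows, threshold 0.05; prior degrees of freedom 2.05). The fit was tested on simulated arrays drawn with the spread of the 21780 rows. It called 0% of rows shifted by log2 of 1, 22.6% at 2, 46.9% at 3 and 63.6% at 4. The simulated noise was normal and independent between arrays, and the spread of each row was taken as exact. In the real data, deviations of same-numbered arrays correlated (r = 0.221), so these rates need not hold for them. Rows were also counted where the groups did not overlap and differed by at least 1.5-fold. Alternatives were normalization, centring, trend, moderation, replicate block, rows fitted, a filter, array weights, fold threshold and each array left out. The 9 members were all named, as were up to 4 genes of each pathway list by the size of the moderated statistic, the 2 nearest genes of each wider-ranging member, and Cdon, Mycn, Sox9 and Foxc1, chosen after their values were seen. The members and lists were chosen with earlier results of these data known. Not analysed here were Prkaca, Grk2 and Arl13b, which no row named singly.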

Additional observations from a re-analysis of the deposited data

How the results depend on the processing

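Under each of the 9 alternatives that keep all 4 arrays, limma called 0 members and 0 pathway rows. Only quantile normalization and median centring among them change the differences, and under both the 33 named genes kept their direction. The other alternatives change the error or the rows fitted and could not turn a sign (the filter on the row mean leaves out Smo among others). With quantile normalization the median difference of all rows was -0.01, that of Hhip -0.59 and that of Sufu -0.50. The replicate number was fitted as a block although nothing in the labels pairs the arrays. Deviations of same-numbered arrays correlated over rows with r = 0.221, and the replicate block gave Hhip an unadjusted limma p of 0.0326 (adjusted 0.86), with 1020 rows in place of 646 at an unadjusted p under 0.05 and 0 called. Apart by 1.5-fold without overlap were 0 to 2 members with 1 array left out: Hhip and Sufu without vehicle replicate 1 or CSA replicate 2, Hhip alone when CSA replicate 1 was left out, and 0 when vehicle replicate 2 was. The count was 2 members at 1.2-fold and 0 at 2-fold. For the pathway rows that count was 6 with all arrays, 3 (Bcl2, Boc and Ulk3) with the filter, which tests fewer rows, and 9 to 20 with 1 array left out (9 without vehicle replicate 1, 10 without CSA replicate 1, 15 without vehicle replicate 2 and 20 without CSA replicate 2), where 1 array against 2 overlaps less often (8.38% to 17.7% of all rows). The median of the members lay between -0.39 and -0.06, and the number with a lower mean in CSA between 5 and 8. Signs turned for 8 of these genes with 1 array left out, over these ranges: Shh -0.50 to 0.036, Ptch1 -0.20 to 0.56, Gli1 -0.39 to 0.30, Gli2 -0.50 to 0.31, Gli3 -0.55 to 0.30, Kif3b -0.077 to 0.70, Cdon -0.66 to 0.78 and Sox9 -0.71 to 0.19. The cause of these shifts was not tested. No signal over background was available, so low expression cannot be told from a flat response.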
